A study of Mus musculus with 48 samples.

Results

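The cytochrome P450 genes described here are the 99 protein-coding genes of the deposited count table whose symbol starts with Cyp and a digit, with Cyp2e1 and Cyp51 left out, of 56748 genes listed and 21970 protein-coding ones. A further 34 pseudogenes and noncoding genes with such symbols were not included. The RNA came from 4 brain regions, and 22 of the 99 genes were expressed in each region, where expressed means a mean of at least 1 CPM (counts scaled to library size) over the 12 libraries of that region. The same 22 genes passed in all 4 regions. Cyp46a1, the neuronal enzyme that turns cholesterol into 24-hydroxycholesterol, held 43.0% of all counts assigned to the 99 genes.

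Cytochrome P450 enzymes are haem proteins that insert an oxygen atom into lipids and drugs, drawing electrons from P450 oxidoreductase in the endoplasmic reticulum or from adrenodoxin in mitochondria. The liver carries most drug-oxidising members (families 1 to 3), where many are induced through nuclear receptors or the aryl hydrocarbon receptor. Brain is known for a smaller set: sterol hydroxylases that remove cholesterol, enzymes that break down retinoic acid, and epoxygenases and omega-hydroxylases of arachidonic acid and other fatty acids.

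The libraries were made from polyadenylated RNA of 16-week-old mice kept on normal chow in shared cages. The KO label stands for 129/Sv-Cyp2e1tm1Gonz/J, a Cyp2e1 knockout line, and the WT label for 129S1/SvImJ. Each label was sampled in females and males, in cerebellum, medial prefrontal cortex and the dorsal and ventral parts of the hippocampus, with 3 biological replicates in each of 16 groups and 48 libraries in all. Whether one animal gave several regions is not stated in the labels. The labels' extraction text speaks of liver, while the tissue fields name brain. Of a list of 12 hepatocyte markers, the 11 other than Ttr together reached 0.131 to 1.58 CPM per library. With Ttr, the list reached up to 1276 CPM in cerebellum, 854 in dorsal hippocampus, 49.4 in prefrontal cortex and 509 in ventral hippocampus. The source of the Ttr RNA was not tested. The liver P450 genes Cyp2c29, Cyp3a11 and Cyp7a1 had 1 count each over 48 libraries.

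Libraries held 14.56 M to 25.86 M counts (median 16.57 M). Cyp2e1 itself went against the labels, with 34 to 111 counts in each of 24 libraries labelled KO and 0 to 8 counts in each of 24 labelled WT, so every genotype difference is given by label. In marker genes, 9 libraries stood apart. Of the cerebellum libraries, female WT 1, male WT 2 and male WT 3 lay 2.41, 1.80 and 2.53 log2 units below their region's mean for 12 granule cell markers, which summed to 337 to 8141 CPM across the region. In the hippocampus, the same list lay above the region's mean in male KO 1 of the dorsal part (by 3.39), and in male KO 3, male WT 1 and male WT 2 of the ventral part (by 3.23, 3.31 and 2.57). In prefrontal cortex, female KO 2 and 3 lay 1.54 and 1.31 above the region's mean for striatal neuron markers.

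Promoter sequences from the RefSeq table (build GRCm38.p6, 250 bases before to 50 after the start) are shown for 4 genes: the most abundant P450, the gene that differed between labels, the expressed gene with the widest range of regional means, and, for contrast, a liver gene with 1 count here. Capitals mark the GC box GGGCGG and the TATA box TATAAA, searched on both strands, and the 2 motifs do not overlap each other in these windows. Of all 27025 promoters of that table, 35.9% hold the GC box and 14.2% the TATA box.
Cyp46a1 (chr12:108334066-108334365, plus strand): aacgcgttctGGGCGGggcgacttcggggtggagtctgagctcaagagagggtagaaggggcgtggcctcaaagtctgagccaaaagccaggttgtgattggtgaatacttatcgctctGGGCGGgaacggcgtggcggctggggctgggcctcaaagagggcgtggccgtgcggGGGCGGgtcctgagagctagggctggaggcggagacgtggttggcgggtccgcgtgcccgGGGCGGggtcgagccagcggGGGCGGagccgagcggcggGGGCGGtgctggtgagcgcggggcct
Cyp2s1 (chr7:25816476-25816775, minus strand): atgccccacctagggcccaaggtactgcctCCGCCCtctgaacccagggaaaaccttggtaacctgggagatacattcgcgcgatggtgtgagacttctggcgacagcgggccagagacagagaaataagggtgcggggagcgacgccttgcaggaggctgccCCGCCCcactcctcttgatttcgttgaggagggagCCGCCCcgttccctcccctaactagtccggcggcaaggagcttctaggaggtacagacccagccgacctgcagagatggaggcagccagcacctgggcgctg
Cyp26b1 (chr6:84593761-84594060, minus strand): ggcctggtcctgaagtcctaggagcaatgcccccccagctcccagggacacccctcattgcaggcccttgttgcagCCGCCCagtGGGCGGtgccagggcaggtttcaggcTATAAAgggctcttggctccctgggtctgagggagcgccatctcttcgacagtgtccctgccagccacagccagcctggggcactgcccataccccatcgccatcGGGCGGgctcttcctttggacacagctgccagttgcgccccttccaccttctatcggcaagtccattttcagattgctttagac
Cyp3a11 (chr5:145879805-145880104, minus strand): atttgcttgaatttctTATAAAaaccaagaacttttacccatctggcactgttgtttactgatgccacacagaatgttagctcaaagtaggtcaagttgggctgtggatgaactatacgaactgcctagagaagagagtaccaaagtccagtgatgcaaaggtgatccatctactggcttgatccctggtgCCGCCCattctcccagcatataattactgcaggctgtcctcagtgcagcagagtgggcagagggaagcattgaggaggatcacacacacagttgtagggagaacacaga
The Cyp46a1 window held 6 GC boxes and no TATA box at a G and C content of 70.3%, and that of Cyp2s1 3 and none at 63.0%. The Cyp26b1 window held 3 GC boxes and 1 TATA box at 62.3%, and that of Cyp3a11 1 of each at 46.3%. These TATA box matches lay 139 bases (Cyp26b1) and 234 bases (Cyp3a11) before the start. Whether they act as TATA boxes was not tested. A wider comparison of expressed with silent P450 promoters is void, because the table has an entry for 16 of the 22 expressed genes (72.7%) and 75 of the 99 (75.8%), under the 80% set for such a check.

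Of the 99 genes, 28 had 0 counts in all 48 libraries, 24 had 1 to 9 counts in total, 17 had 10 to 99, 8 had more than that but were not expressed, and the 22 expressed genes had the most. A count of 0 over the 48 libraries allows a level of up to 0.00368 CPM, counting error only. The 28 were 18 CYP2, 5 CYP3 and 5 CYP4 genes, among them Cyp2b9, Cyp2c38, Cyp2j5, Cyp3a41a and Cyp4a14. Of the CYP3 family, the main drug oxidisers of liver, 0 of 9 members passed the limit of 1 CPM, and of the CYP2 family 7 of 47 did. Cyp3a13 fell just short of it in cerebellum, at 0.994 CPM. Leaving out 1 library at a time gave 22 to 23 expressed genes in cerebellum. The CYP4 family had 7 expressed of 20, the oxysterol and bile acid enzymes 4 of 6, retinoic acid breakdown 1 of 3, steroid hormone synthesis 1 of 6, CYP1 1 of 3 and vitamin D metabolism 0 of 3. In all, 27 genes had enough counts for the fit of 48 libraries and 23 to 25 for the fit within each region. The other 72 did not pass the low-count filter of any of these fits, and the highest mean of any of them in a region was 0.429 CPM, for Cyp4a12b in ventral hippocampus.

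**Figure D1:**
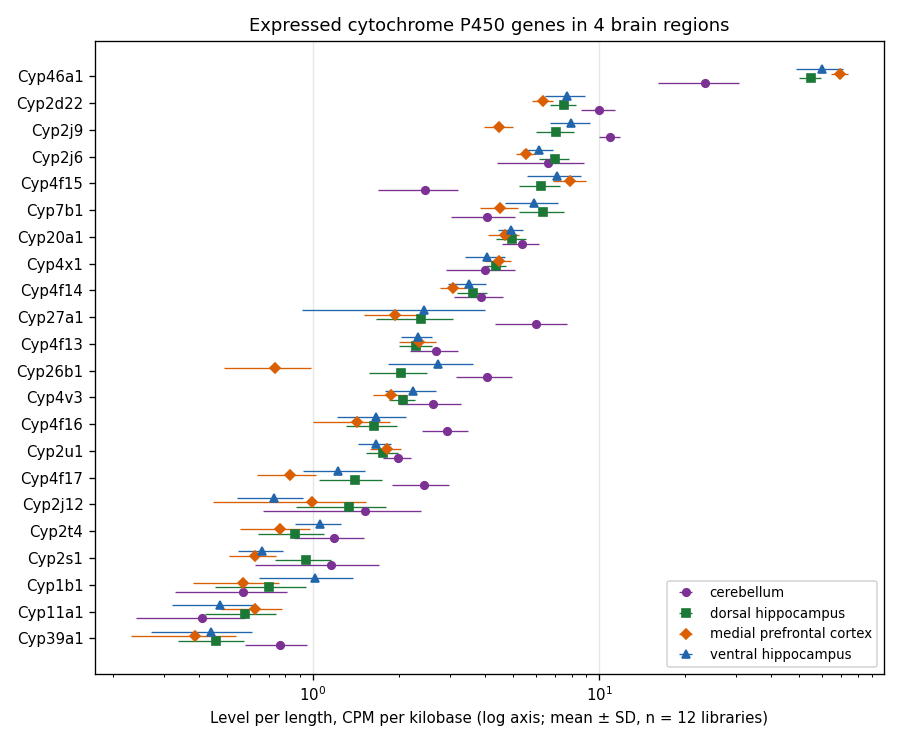
Mean level per gene length (CPM per kilobase, log axis) of the 22 expressed cytochrome P450 genes in 4 regions, with bars of 1 SD over 12 libraries. Cyp46a1 stands above every other gene in each region, at 23.3 in cerebellum and 54.8 to 69.3 elsewhere.

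A sterol enzyme, Cyp46a1, led the set. Per kilobase of transcript, Cyp46a1 (chr12:108300640-108328493 in the deposited table, build mm39 per the submitters' notes) averaged 23.3 ± 7.35 in cerebellum, 54.8 ± 4.80 in dorsal hippocampus, 69.3 ± 4.68 in prefrontal cortex and 59.9 ± 11.2 in ventral hippocampus (CPM per kilobase, SD, n = 12). Its level ran from 37.6 to 110 CPM in cerebellum (median 76.5), from 163 to 212 in dorsal hippocampus (median 176), from 201 to 248 in prefrontal cortex (median 229) and from 119 to 243 in ventral hippocampus (median 207). The cerebellum range lay wholly below the other 3. Cerebellum was lower by 1.27 to 1.61 log2 units than each other region (edgeR adjusted p from 2.76e-17 to 3.43e-14), and prefrontal cortex exceeded dorsal hippocampus by 0.34 ± 0.09 (SE, adjusted p = 0.00427). Within ventral hippocampus, the lowest libraries were male KO 3 (119 CPM) and male WT 1 (138 CPM), which are among those high in granule cell markers. Male WT 2 of that part, also high in these markers, lay above male KO 1, which was not. In dorsal hippocampus, the library high in these markers, male KO 1, was not the lowest. Cyp46a1 made up 22.6% ± 5.85 of the counts of all 99 genes in cerebellum, 45.2% ± 3.03 in dorsal hippocampus, 55.1% ± 2.52 in prefrontal cortex and 46.7% ± 6.42 in ventral hippocampus (SD, n = 12). In bulk tissue, fewer cells of a type and less RNA per cell cannot be told apart.

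Cyp27a1, the mitochondrial sterol 27-hydroxylase (chr1:74752733-74777051), had the opposite gradient. It ran from 8.75 to 20.6 CPM in cerebellum (median 12.1), from 3.58 to 9.05 in dorsal hippocampus (median 4.67), from 2.71 to 6.36 in prefrontal cortex (median 4.20) and from 2.24 to 12.4 in ventral hippocampus (median 4.38). Cerebellum was higher by 1.34 ± 0.17 log2 units than ventral hippocampus, by 1.36 ± 0.17 than dorsal hippocampus and by 1.63 ± 0.18 than prefrontal cortex (SE, largest edgeR adjusted p 2.80e-08). The other 3 regions did not differ from each other for Cyp27a1 beyond their spread (adjusted p from 0.231 to 0.959). The 2 ventral libraries that reached the cerebellum range, male KO 3 (12.4 CPM) and male WT 1 (11.9 CPM), and the highest dorsal one, male KO 1 (9.05 CPM), are the ones with the most granule cell marker RNA in their regions. Within cerebellum, male WT 2, low in the markers, had 18.8 CPM of Cyp27a1, and male WT 1, with the highest marker sum of its label, had 20.6 CPM. Without the 9 libraries that stood apart, Cyp27a1 was still higher in cerebellum than in each other region.

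**Figure D2:**
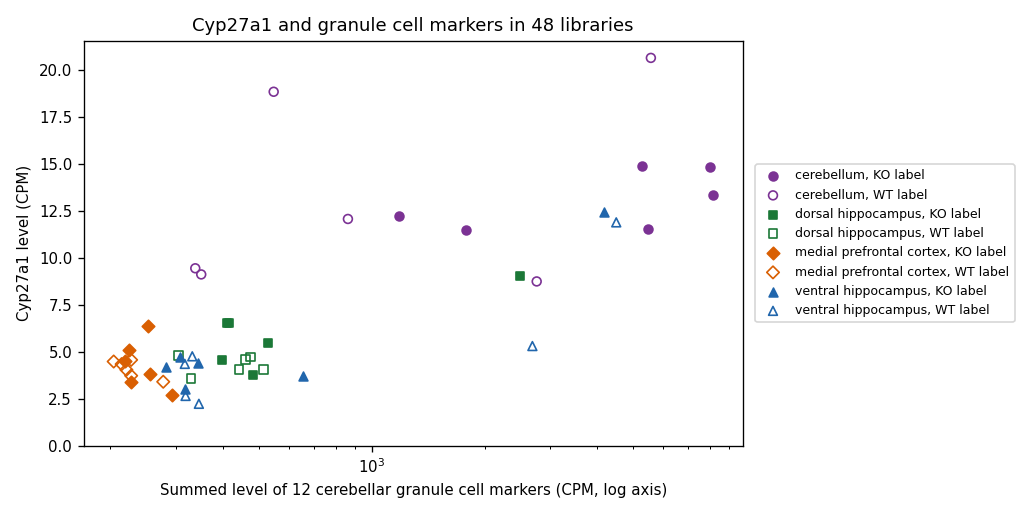
Level of Cyp27a1 (CPM) against the summed level of 12 cerebellar granule cell markers (CPM, log axis), 1 point per library, filled for the KO label and open for the WT label. The hippocampal libraries with the highest marker sums, male KO 3 and male WT 1 of the ventral part, have 12.4 and 11.9 CPM of Cyp27a1, while cerebellum libraries span 8.75 to 20.6 CPM over the whole marker range.

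Cyp7b1, which 7-alpha-hydroxylates 25- and 27-hydroxycholesterol and neurosteroids, was highest in the hippocampus. It averaged 13.8 ± 2.47 CPM in the dorsal and 12.8 ± 2.68 in the ventral part, against 8.79 ± 2.22 in cerebellum and 9.77 ± 1.48 in prefrontal cortex (SD, n = 12). Dorsal hippocampus exceeded cerebellum by 0.65 ± 0.10 and prefrontal cortex by 0.49 ± 0.10 log2 units (SE, edgeR adjusted p = 6.85e-07 and 0.000233), and the hippocampal parts did not differ beyond their spread (adjusted p = 0.484). Cyp39a1, the 24-hydroxycholesterol 7-alpha-hydroxylase and so an enzyme that acts on the Cyp46a1 product, was scarce, at 1.18 to 2.34 CPM on average. It was higher in cerebellum than in each other region, by 0.72 log2 units or more (largest adjusted p 0.000824). The liver bile acid enzymes Cyp7a1 and Cyp8b1 had 1 and 91 counts over the 48 libraries.

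Cyp26b1, which clears all-trans retinoic acid, had the widest range of regional means, as a ratio, of the 22 expressed genes. Its level ran from 14.6 to 30.1 CPM in cerebellum (median 21.4), from 8.11 to 21.0 in ventral hippocampus (median 13.5), from 5.92 to 14.9 in dorsal hippocampus (median 11.0) and from 1.99 to 7.04 in prefrontal cortex (median 3.96). Cerebellum exceeded prefrontal cortex by 2.48 ± 0.14 log2 units (SE, edgeR adjusted p = 1.64e-17), and the ranges of those 2 regions do not overlap. All 6 pairs of regions differed for Cyp26b1, the closest being the hippocampal parts (ventral higher by 0.37 ± 0.13, adjusted p = 0.0484). The highest ventral levels, up to 21.0 CPM, were those of male KO 3, male WT 1 and male WT 2, the ventral libraries high in granule cell markers. Their part in the difference between the hippocampal parts was not tested. Its relatives Cyp26a1 and Cyp26c1 had 70 and 26 counts in total.

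The 5 expressed CYP4F genes, of a family that omega-hydroxylates leukotrienes and long fatty acids, lie together on chromosome 17 and differed in regional pattern. Cyp4f15 (chr17:32904601-32922326) was the gene low in cerebellum, from 2.82 to 8.34 CPM there (median 5.99), against 12.1 to 20.1 in dorsal hippocampus (median 13.7), 14.4 to 21.8 in prefrontal cortex (median 18.2) and 10.7 to 21.9 in ventral hippocampus (median 16.4). The cerebellum libraries lay below every other library for Cyp4f15, and the difference from each other region was 1.37 to 1.71 log2 units (largest edgeR adjusted p 2.43e-13).
Cyp4f16 (chr17:32755532-32770772) and Cyp4f17 (chr17:32725024-32749117), neighbours on the same strand, were high in cerebellum instead. Cyp4f16 averaged 9.01 ± 1.66 CPM in cerebellum and 4.38 to 5.10 elsewhere, and Cyp4f17 7.78 ± 1.74 in cerebellum, 4.46 ± 1.11 in dorsal hippocampus, 3.90 ± 0.95 in ventral hippocampus and 2.66 ± 0.62 in prefrontal cortex (SD, n = 12). The smallest gap between cerebellum and another region was 0.83 log2 units for Cyp4f16 and 0.81 for Cyp4f17. Cyp4f13 was higher in cerebellum by only 0.19 log2 units or more (largest adjusted p 0.0268), and Cyp4f14 differed between cerebellum and prefrontal cortex (0.32, adjusted p = 0.00082). Reads of near-identical copies may be split between the members of the 4F, 2J and 2D clusters, and the sources used here do not say how such reads were counted.

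Cyp4x1, a P450 known for its brain expression, averaged 16.7 ± 4.49 CPM in cerebellum, 18.3 ± 1.51 in dorsal hippocampus, 18.6 ± 1.88 in prefrontal cortex and 16.9 ± 2.75 in ventral hippocampus (SD, n = 12). No pair of regions differed for Cyp4x1 beyond its spread (smallest edgeR adjusted p 0.0786). Cyp4v3, a fatty acid omega-hydroxylase, was higher in cerebellum than in the other regions by 0.22 log2 units or more (largest adjusted p 0.0241). Cyp4b1 had 14 counts over the 12 cerebellum libraries against 94, 144 and 104 in dorsal hippocampus, prefrontal cortex and ventral hippocampus, a pooled level 6.77, 10.9 and 7.71 times higher there.

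**Figure D3:**
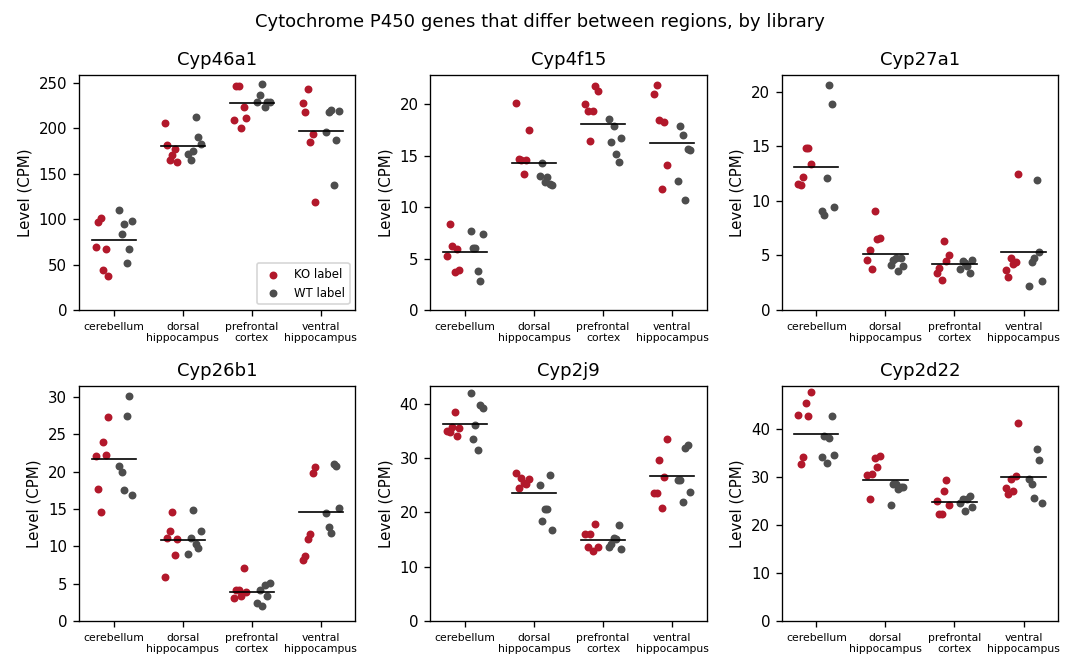
Level (CPM) of 6 cytochrome P450 genes in each of 48 libraries, by region and genotype label, with the mean of 12 libraries as a line. Cyp46a1 and Cyp4f15 are lowest in cerebellum, with means of 76.7 and 5.59 CPM, and Cyp27a1, Cyp26b1, Cyp2j9 and Cyp2d22 are highest there, at 13.1, 21.7, 36.3 and 39.0 CPM.

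In cerebellum, 3 CYP2 genes followed Cyp46a1 in level per length. Cyp2d22, a relative of the drug-oxidising human CYP2D6, had 9.97 ± 1.34 CPM per kilobase in cerebellum and 6.37 to 7.69 in the other regions, and Cyp2j9, an arachidonic acid epoxygenase, 10.9 ± 0.89 and 4.47 to 7.98. Cyp2j6 of the same epoxygenase family had 6.64 ± 2.23 in cerebellum and 5.54 to 7.00 elsewhere (SD, n = 12). The level of Cyp2j9 fell from cerebellum (31.5 to 41.9 CPM) through ventral (20.9 to 33.6) and dorsal hippocampus (16.8 to 27.3) to prefrontal cortex (12.8 to 17.9). Cyp2j9 was higher in cerebellum by 0.45 log2 units or more and lower in prefrontal cortex by 0.66 or more than in each other region (largest edgeR adjusted p 3.51e-06), whereas the 2 hippocampal parts did not differ beyond their spread (adjusted p = 0.108). Cyp2d22 had the same outer regions with smaller steps, of 0.37 and 0.23, and the second was lost without the 9 libraries that stood apart (0.11, adjusted p = 0.265).

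Cyp2j13, on the same strand of chromosome 4 as Cyp2j9 and Cyp2j6, had 0 counts in all 12 cerebellum libraries. It had 83 counts in dorsal hippocampus, 163 in prefrontal cortex and 143 in ventral hippocampus, each over 12 libraries. Set against the 3 counts that 0 allows over the 12 cerebellum libraries, its pooled level was at least 27.9-fold, 57.4-fold and 49.5-fold higher there. It stayed under 1 CPM on average in every region, at 0.399, 0.854 and 0.711 CPM. Cyp2j12, another neighbour, was expressed in all regions, from 2.96 ± 1.67 CPM in cerebellum to 1.42 ± 0.37 in ventral hippocampus (SD, n = 12).

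Cyp20a1, whose substrate is unknown, had 10.7 to 12.2 CPM on average and did not pass the test across regions (edgeR adjusted p = 0.0972). Cyp1b1, which oxidises oestradiol and is induced through the aryl hydrocarbon receptor, averaged 5.91 ± 2.12 CPM in ventral hippocampus and 3.32 to 4.08 elsewhere (SD, n = 12). Relative to ventral hippocampus, cerebellum differed by -0.85 log2 units and prefrontal cortex by -0.86 (edgeR adjusted p = 0.000575 and 0.0014). The dorsal hippocampus difference of -0.54 did not pass (adjusted p = 0.0638). Cyp11a1, the mitochondrial enzyme that makes pregnenolone from cholesterol, averaged 1.96 to 3.02 CPM. It was lower in cerebellum than in prefrontal cortex by 0.67 ± 0.16 log2 units (SE, adjusted p = 0.000342), and it overlaps the noncoding Gm17322 on the same strand, which had 4684 counts. Cyp2t4 overlaps Egln2 on the other strand, with 72490 counts, and as the use of strand in counting is not given, reads of the pair cannot be told apart. Below 1 CPM in every region lay Cyp3a13 (0.994 in cerebellum), Cyp2b19 and the vitamin D enzymes Cyp2r1 and Cyp27b1. So did aromatase Cyp19a1 (42 counts in all) and Cyp17a1 of androgen synthesis (64 counts).

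Across the 4 regions, 24 of 27 P450 genes tested differed (edgeR quasi-likelihood F test, adjusted p under 0.05 over all genes), where 72.4% of all 19183 genes tested did. The exceptions were Cyp20a1, Cyp4x1 and Cyp2r1. Of the 27, 10 were higher in cerebellum than in each other region, 4 were lower in cerebellum and 4 were lower in prefrontal cortex. The share of all genes with such patterns is not given here, so these counts do not set P450 genes apart. By pairs of regions, 18 of 27 differed between cerebellum and dorsal hippocampus (55.5% of all genes), 22 between cerebellum and prefrontal cortex (65.5%), 19 between cerebellum and ventral hippocampus (58.6%), 12 between dorsal hippocampus and prefrontal cortex (29%), 10 between prefrontal cortex and ventral hippocampus (32.4%) and 3 between the hippocampal parts (16.7%). Without the 9 libraries that stood apart in markers, 23 genes differed.

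Between the genotype labels, a single P450 gene passed. In cerebellum, Cyp2s1, a P450 of extrahepatic tissues that is induced through the aryl hydrocarbon receptor, was lower under the KO label, and 1 of 24 P450 genes tested was called there against 7.69% of all 17825 genes (5.31% lower under the KO label). In dorsal hippocampus 0 of 24 were called (0.753% of all genes), in prefrontal cortex 0 of 25 (0.34%) and in ventral hippocampus 0 of 23 (0.0748%). At an unadjusted p under 0.05, the counts were 9, 6, 2 and 0 genes in cerebellum, dorsal hippocampus, prefrontal cortex and ventral hippocampus, where all genes gave 35.6%, 13.6%, 12.9% and 4.26%. DESeq2 called 5 in cerebellum, with Cyp4f17, Cyp2j6, Cyp4f13 and Cyp4x1 beside Cyp2s1, and 0 in each other region. In cerebellum DESeq2 called 3915 genes of the whole table, against 1370 by edgeR. The edgeR count rests on single libraries: leaving out 1 cerebellum library gave 7 (without male KO 3) to 6346 (without male WT 1) calls over all genes, under 40 in 9 of the 12 such fits. The median log2 difference of the P450 genes was -0.06, 0.12, 0.01 and 0.05 in that order, and of all genes within 0.02 of 0.

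**Figure D4:**
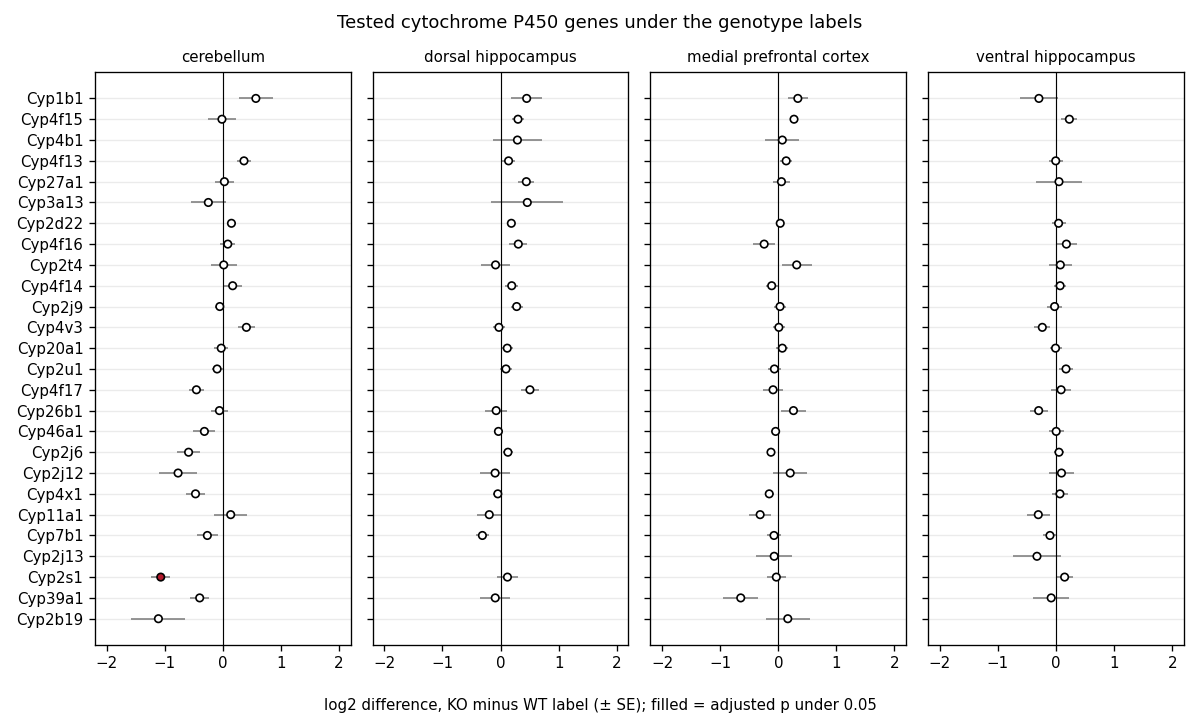
Log2 difference between the KO and WT labels with its SE for each cytochrome P450 gene tested, by region, filled where the adjusted p is under 0.05. Only Cyp2s1 in cerebellum, at -1.07, is filled.

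Cyp2s1 (chr7:25501900-25516338, minus strand) ran from 2.34 to 5.32 CPM in the 6 cerebellum libraries of the KO label (median 3.78) and from 6.44 to 11.9 in the 6 of the WT label (median 7.03), so the groups do not overlap. How many of all genes also separate the labels in cerebellum is not given here. The log2 difference of Cyp2s1 was -1.07 ± 0.16 (SE, edgeR adjusted p = 0.0375). Among the KO-label libraries, the 3 males (2.34 to 3.54 CPM) lay below the 3 females (4.02 to 5.32), while among those of the WT label the males (7.14 to 11.9) lay above the females (6.44 to 6.92). The sex by label difference of 1.17 ± 0.32 did not pass (edgeR adjusted p = 0.313). In the other regions, the difference was 0.12 ± 0.18 in dorsal hippocampus, -0.03 ± 0.16 in prefrontal cortex and 0.15 ± 0.14 in ventral hippocampus (SE), and the ranges of the labels overlap in each.
Marker levels moved with this result. The granule cell markers averaged 1.00 ± 1.06 log2 units above the region's mean under the KO label and as far below it, ± 1.58, under the WT label (SD, n = 6). Their sums were 1182 to 8141 and 337 to 5565 CPM, and 0 of these 12 markers were called between the labels. Oligodendrocyte markers averaged -0.41 ± 0.38 and 0.41 ± 0.39, with 7 of 12 called lower under the KO label and sums of 4323 to 8120 and 7128 to 17111 CPM, and 4 of 12 microglia markers were called lower (sums of 136 to 205 and 174 to 259 CPM). Purkinje cell markers averaged 0.69 ± 0.69 and -0.69 ± 0.94 with 0 called, hippocampal neuron markers -0.28 ± 0.51 and 0.28 ± 0.18 with 3 of 10 called lower, and choroid plexus markers -0.27 ± 0.17 and 0.27 ± 1.20 with 1 of 10 called lower. Of the other lists, 2 of 12 astrocyte markers and 1 of 10 cortical neuron markers were called lower and 2 of 10 mural cell markers higher. No marker of the lists named here was at 0. With the granule list as a covariate the Cyp2s1 difference was -0.89 (adjusted p = 0.435), and without the 3 cerebellum libraries low in it -0.91 (adjusted p = 0.341). Leaving out any of 8 single libraries of the 12 also ended the call: female KO 1 or 2, male KO 1 or 3, any female WT or male WT 2 (adjusted p over all 12 such fits from 0.00487 to 0.112). The part of RNA of the lists other than granule cells was not tested.

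**Figure D5:**
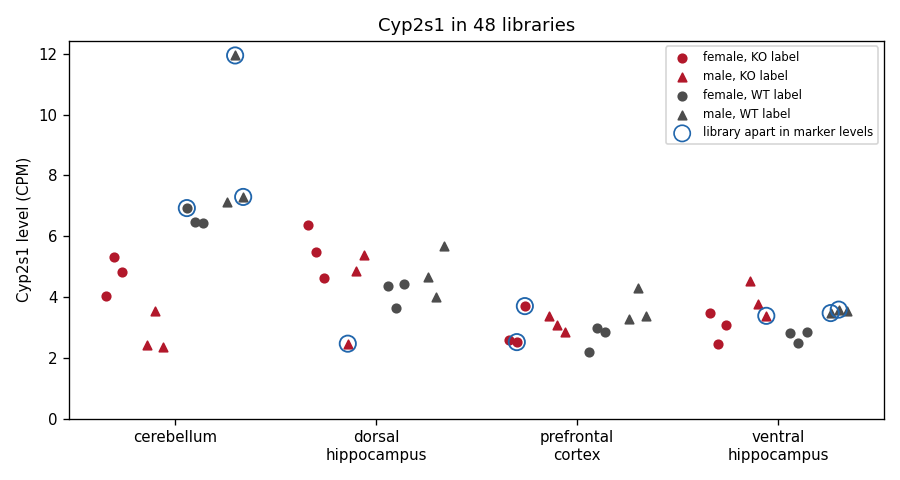
Level of Cyp2s1 (CPM) in each of 48 libraries by region, sex and label, with circles around the 9 libraries that stand apart in marker genes. In cerebellum the KO-label libraries lie between 2.34 and 5.32 CPM and the WT-label libraries between 6.44 and 11.9, and in the other regions the labels overlap.

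Next to Cyp2s1, the smallest p-values in cerebellum belonged to Cyp4f17 (-0.46 ± 0.13, SE, edgeR adjusted p = 0.0552) and Cyp4x1 (-0.47 ± 0.16, adjusted p = 0.0737). In dorsal hippocampus they belonged to Cyp4f17 (0.51 ± 0.16, adjusted p = 0.161), Cyp27a1 (0.44 ± 0.14, adjusted p = 0.17) and Cyp4f15 (0.30 ± 0.10, adjusted p = 0.195). In prefrontal cortex, Cyp4f15 ran from 16.4 to 21.8 CPM under the KO label and from 14.4 to 18.5 under the WT label, a difference of 0.27 ± 0.07 with adjusted p = 0.129, followed by Cyp39a1 (-0.65 ± 0.30, adjusted p = 0.368) and Cyp4x1 (-0.16 ± 0.08, adjusted p = 0.399). In ventral hippocampus, Cyp26b1 (-0.30 ± 0.15), Cyp4v3 (-0.24 ± 0.14) and Cyp4f15 (0.23 ± 0.14) all had an adjusted p of 1.00. Cyp46a1, the most abundant member, differed by -0.32 ± 0.19 in cerebellum and by -0.05 to 0.00 elsewhere, none past the threshold.

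The difference between the labels itself varied between regions for 3 of 27 P450 genes (edgeR F test of region by label, 7.61% of all genes). For Cyp2s1 the adjusted p was 0.00356. Cyp4f17 was lower under the KO label by 0.46 log2 units in cerebellum and higher by 0.51 in dorsal hippocampus, with -0.09 in prefrontal cortex and 0.09 in ventral hippocampus (adjusted p = 0.0165). Its level ran from 5.23 to 8.59 CPM under the KO label and from 7.62 to 10.9 under the WT label in cerebellum, and from 4.17 to 5.84 against 2.27 to 5.30 in dorsal hippocampus. Cyp2j6 differed by -0.59, 0.13, -0.13 and 0.05 in cerebellum, dorsal hippocampus, prefrontal cortex and ventral hippocampus (adjusted p = 0.0294). In cerebellum, Cyp2j6 ran from 11.6 to 27.2 CPM under the KO label and from 17.7 to 37.8 under the WT label, and its 2 lowest libraries, male KO 1 and male KO 3, were the 2 highest in granule cell markers. Without the 9 libraries that stood apart, 1 of the 3 calls was left, that of Cyp2s1 (adjusted p = 0.0361), and without the cerebellum none was.

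Between females and males, no P450 gene was called in any region (edgeR, adjusted p under 0.05), where 0.0393%, 0.0575%, 0.135% and 0.0345% of all genes were in cerebellum, dorsal hippocampus, prefrontal cortex and ventral hippocampus. At an unadjusted p under 0.05 there were 10, 0, 8 and 9 P450 genes, or 41.7%, 0%, 32% and 39.1% of those tested, where all genes gave 16.6%, 7.35%, 9.09% and 18%. DESeq2 called 0, 0, 0 and 1. The gene DESeq2 called was Cyp26b1 in ventral hippocampus, which ran from 8.11 to 14.4 CPM in females (median 11.3) and from 11.6 to 21.0 in males (median 20.2). The edgeR difference was -0.74 ± 0.15 log2 units, female minus male (SE, adjusted p = 0.168). The 3 ventral libraries high in granule cell markers are all male and had 20.6 to 21.0 CPM of Cyp26b1, and without them the difference was -0.50 (adjusted p = 0.892). In the same region, Cyp7b1 (0.39 ± 0.11, adjusted p = 0.199) and Cyp46a1 (0.35 ± 0.13, adjusted p = 0.22) had the next smallest p-values. The lowest ventral libraries for Cyp46a1, male KO 3 and male WT 1, are among those high in granule cell markers. Male WT 2, also high in them, lay above male KO 1, which was not.

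In cerebellum, Cyp46a1 ran from 69.9 to 110 CPM in females and from 37.6 to 97.8 in males (0.66 ± 0.19, SE, edgeR adjusted p = 0.28), with Cyp27a1 (-0.47 ± 0.17) and Cyp11a1 (0.79 ± 0.28) at the same adjusted p. The lowest library for Cyp46a1, male KO 3, is among those highest in granule cell markers. The highest female and male, female WT 1 and male WT 3, are low in them. Male WT 2, also low in them, lay below every female. The part of granule cell RNA in this difference was not tested. In prefrontal cortex the smallest p-values were those of Cyp1b1 (-0.53 ± 0.18), Cyp4f17 (-0.51 ± 0.17) and Cyp2j12 (-0.87 ± 0.29), with adjusted p from 0.351 to 0.363. In dorsal hippocampus Cyp7b1, Cyp27a1 and Cyp4f17 led without passing. A difference between the labels that depended on sex was called for 0 P450 genes in each region, against 0%, 0%, 1.59% and 0% of all genes, and DESeq2 called 0 as well. Before adjustment, 1, 3, 3 and 4 genes had a p under 0.05, or 4.17%, 12.5%, 12% and 17.4% of those tested, where all genes gave 13.5%, 12.8%, 17.7% and 4.27%. Cyp4f13 in prefrontal cortex (-0.61 ± 0.20, edgeR adjusted p = 0.118) lay nearer the threshold than Cyp2s1 in cerebellum and did not pass.

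Partner genes of the P450 enzymes were measured in the same fits. Por, the reductase that feeds electrons to every microsomal P450, averaged 77.3 to 82.5 CPM in the 4 regions. Of 16 electron donor and haem supply genes, 15 were tested and 0 were called between the labels in any region, with Cyb5b of the outer mitochondrial membrane in cerebellum (-0.25 ± 0.08, SE, edgeR adjusted p = 0.0602) and Fdx1, adrenodoxin, in dorsal hippocampus (0.36 ± 0.10, adjusted p = 0.13) nearest. Of the receptors that control P450 genes, 2 of 16 tested in cerebellum were lower under the KO label, Rxrg by 1.29 and Rxra by 0.62 log2 units (adjusted p = 0.0437 and 0.0459), and 0 were called elsewhere. The retinoic acid receptor Rara in prefrontal cortex did not pass (0.32 ± 0.09, adjusted p = 0.134).
Of the sterol handling genes, 4 of 10 tested were called lower under the KO label in cerebellum. Among them were the cholesterol synthesis enzymes Hmgcs1, lower by 0.64 log2 units (edgeR adjusted p = 0.0419), and Sqle, also lower by 0.64 (adjusted p = 0.045). Of the retinoid handling genes, Aldh1a1, which makes retinoic acid, was higher under the KO label by 0.28 ± 0.06 in dorsal hippocampus (adjusted p = 0.0449, 1 of 10 tested). None of 11 to 12 eicosanoid enzymes tested per region was called. In dorsal hippocampus, the granule cell markers averaged 0.41 ± 1.47 in the 6 KO-label libraries, of which male KO 1 was the one high in them, and -0.41 ± 0.12 in the 6 of the WT label (SD). Aldh1a1 averaged 68.1 CPM there against 189 in cerebellum, and the part of such RNA in its difference was not tested. Over all genes, the cerebellum calls numbered 11 with the granule list as a covariate, 9 without female WT 2 alone and 7 without male KO 3 alone. Female WT 2 is not one of the libraries low in granule cell markers, and male KO 3 is among the cerebellum libraries highest in them. These counts stand beside the 7.69% and 0.753% of all genes called in cerebellum and dorsal hippocampus, and the cerebellum marker values given for Cyp2s1 stand beside the cerebellum calls too, their part in them being not tested.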

How the data were processed

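The deposited table holds raw read counts per gene for 48 libraries, with gene symbols, mm39 coordinates and gene lengths. Reads were aligned with HISAT2 2.0.5 to mm39, and DESeq2 was among the tools, per the submitters' processing notes. The counting tool, its annotation and its use of strand are not given in the sources used here.

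Levels are CPM (counts scaled to library size) with TMM factors over 48 libraries, and CPM per kilobase divides them by the table's gene length. Differences come from edgeR 4.0.16 (R 4.3.3, limma 3.58.1), with a robust quasi-likelihood F test after filterByExpr (minimum count 10, minimum total 15), and Benjamini-Hochberg adjustment over all genes tested, called under 0.05. Each region was fitted with 4 means of sex by label, and all 48 libraries with 16 means for regions and region by label. The steps were tested on simulated data. Marker levels are mean log2(CPM + 0.5) relative to the region's mean.

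Genes named with values were, by rule, those called or with the smallest p in each comparison, the highest per kilobase and those highest or lowest in a region. Others were chosen for their role after values were seen. The members and lists were chosen with earlier results of these data known. The alternatives were DESeq2 1.42.0, other size factors, other count filters and expression limits, a replicate block, 1 model of all libraries, and leaving out libraries. The 9 libraries apart in markers and the marker covariate were chosen after seeing the data. Replicates are biological per the series' design text, and whether regions share animals is not stated. No pair of libraries within a group agreed within sampling noise (lowest chi-square per degree of freedom 3.73). Limits for a count of 0 use 3 counts and cover counting error only. Figures were drawn with matplotlib 3.10.9. Some genes of the partner lists are not reported here.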

Additional observations from a re-analysis of the deposited data

Results flagged for a closer look

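Of the 27 P450 genes tested, 3 had a difference between the KO and WT labels that itself varied between the 4 regions (edgeR F test of region by label, adjusted over all genes tested). Cyp2s1 had an adjusted p of 0.00356, with label differences of -1.07 in cerebellum, 0.12 in dorsal hippocampus, -0.03 in prefrontal cortex and 0.15 in ventral hippocampus on the log2 scale. Cyp4f17 had an adjusted p of 0.0165, with -0.46, 0.51, -0.09 and 0.09 in the same order. Cyp2j6 had an adjusted p of 0.0294, with -0.59, 0.13, -0.13 and 0.05. Without the cerebellum, none of these 3 genes was called.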

How the results depend on the processing

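The cerebellum count of P450 genes called between the labels, 1 in the reported fit, moved most. It was 0 with the granule cell markers as a covariate, 0 without the libraries apart in markers, 5 by DESeq2 and 7 with all 48 libraries in one model. Leaving out one library at a time gave 0 to 8, with 8 without male WT 1 (6346 calls over all genes in that fit) and 2 without male KO 2 (1496), and Cyp2s1 stayed between -1.17 and -0.94 (adjusted p from 0.00487 to 0.112). With no low-count filter 1 gene, Cyp2j9, was called in dorsal hippocampus (0.28, adjusted p = 0.0301), and DESeq2 called 1 by sex in ventral hippocampus. Leaving out one library gave 0 to 1 calls by sex in cerebellum (Cyp27a1, without male WT 3), 0 to 2 in ventral hippocampus (Cyp26b1 without male KO 1, and with Cyp7b1 without male WT 3) and 0 to 1 for sex by label in prefrontal cortex (Cyp4f13, without male WT 1). The region by label count of 3 was 0 without the cerebellum, 1 without the libraries apart in markers and 0 to 1 without one replicate number. Expressed genes numbered 19 to 25 per region over limits of 0.5 to 2 CPM, and regional calls 20 to 23 without one replicate number. Of 225 values of single genes under other alternatives, 212 kept direction and side of the threshold, 8 lost the call, 5 gained it and 0 reversed. The cause of these changes was not tested.

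Over all genes, label calls in cerebellum were 1370 as reported, 3915 by DESeq2, 6185 in one model, 485 with the replicate block, 11 with the covariate, 15 without the libraries apart in markers and 7 to 6346 without one library. In dorsal hippocampus they were 131, against 753 without a filter, 437 by DESeq2, 252 without those libraries, 218 with the covariate, 201 with the block and 23 in one model. In prefrontal cortex they were 58, against 427 without a filter, 193 by DESeq2, 17 without those libraries and 19 in one model. Same-numbered libraries had r over 0.1 in 22 of 72 pairs within regions (median 0.025) and 27 of 72 across regions (median 0.061, from -0.40 to 0.53), so the numbers were not taken as pairs. Some sets did deviate together across regions, with female WT 1 over 0.1 in all 6 pairs of regions and 8 of 12 cerebellum and ventral hippocampus pairs over it. The tests across regions treat libraries as independent. The replicate block changed no count of P450 calls (Cyp2s1 -1.08, adjusted p = 0.0278, region by label 3, regions 24). Fits that leave a group with 1 library assume that it varies like the other groups. Depth limits the 72 genes under the low-count filter of the reported fits.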
